A study of Mus musculus with 2 samples.

Results

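Expression of 47 listed genes of the actin cytoskeleton and the contractile apparatus was compared between 2 clones of the mouse embryonic stem cell line E14tg2a. One, shDAB2 clone 4, is a stable transfectant of a plasmid that encodes a short hairpin RNA against Dab2, the gene of an endocytic adaptor protein. The other, vector clone 9, carries the control plasmid. Both clones grew in the same medium, which held 10% serum and LIF at 1000 U/ml, the cytokine that keeps these cells undifferentiated, and each was hybridised to 1 Affymetrix mouse 430A array. The genes were chosen by name, as actins, actin-binding proteins, tropomyosins, myosin II, crosslinkers and focal adhesion proteins, at a time when results of these arrays were already known, so the counts below are descriptions and not independent evidence. Of the 47 names, 45 had at least 1 probe set annotated to that gene alone, 103 probe sets in all among the 22626 on the array, and the 45 genes stand among 12393 genes measured in this way. Myh10 had no such probe set, and the 2 probe sets that name Arpc1b also name another gene, so neither is reported.

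Actin monomers assemble into filaments that give a cell its cortex, protrusions and stress fibres. Tropomyosin, calponin and caldesmon lie along the filament, myosin II pulls on it, alpha-actinin and filamin crosslink it, and vinculin, talin, zyxin and paxillin tie it to integrins at focal adhesions. Many of these genes are known targets of SRF, a transcription factor that binds the CArG box and works with MRTF coactivators, which sense the pool of free actin monomer.

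All values are log2 expression values made with RMA, and every difference is shDAB2 minus vector, so a negative difference is lower in the shDAB2 clone. A gene with several probe sets is represented by the one with the highest mean signal. A floor was set at 6.62, the median over all probe sets and both arrays, which a gene had to reach on at least 1 array. With 1 array per clone there is no replicate and no test across samples. The hairpin, the clone and the culture cannot be told apart, and in such bulk RNA neither can fewer cells of a type and less RNA per cell. Different probe sets of 1 gene are the nearest thing to a repeat: their differences had an SD of 0.11 per probe set over 2502 genes, which reflects probe noise and transcript variants but not the spread between cultures. The arrays correlated at r = 0.99 across probe sets, and the differences of the 7269 genes above the floor had an SD of 0.22. Dab2 itself was dim, at 6.33 in shDAB2 cells against 6.64 in vector cells on its brightest probe set, a difference of -0.31. Its other probe sets lay below the floor and gave -0.05 and -0.01, and the mean of all of them gave -0.12.

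The actin cytoskeleton genes read lower in the shDAB2 clone almost throughout. Of the 45 measured genes 42 were above the floor, each of them on both arrays, and 40 of these were lower and 2 higher. The share of lower genes was 95.2%, beside 49.3% over all genes above the floor. Their median difference was -0.32, against 0.00063 over all genes. At least 1.5-fold lower were 12 of the 42 (28.6%), where 1.62% of all genes were, and 0 were 1.5-fold higher, where 0.578% of all genes were. The 12 genes were Acta1, Tagln, Cald1, Pdlim7, Cnn2, Tagln2, Gsn, Msn, Myh9, Flna, Csrp1 and Vcl, and they made up 10.2% of the 118 genes that were 1.5-fold lower on these arrays. At a lower limit, a log2 difference of 0.32, the count was 21 lower and 0 higher, against 6.07% and 4.91% of all genes. Only Acta1 was 2-fold lower, where 0.179% of all genes were, and no listed gene was 2-fold higher, where 0.0275% of all genes were. Just short of the 1.5-fold limit (a log2 difference of 0.58) lay Tpm1 at -0.56 and Tln1 at -0.55, and just past it lay Vcl at -0.61. The 3 genes below the floor, Actc1, Actg2 and Vil1, differed by -0.12, 0.05 and -0.05.

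**Figure D1:**
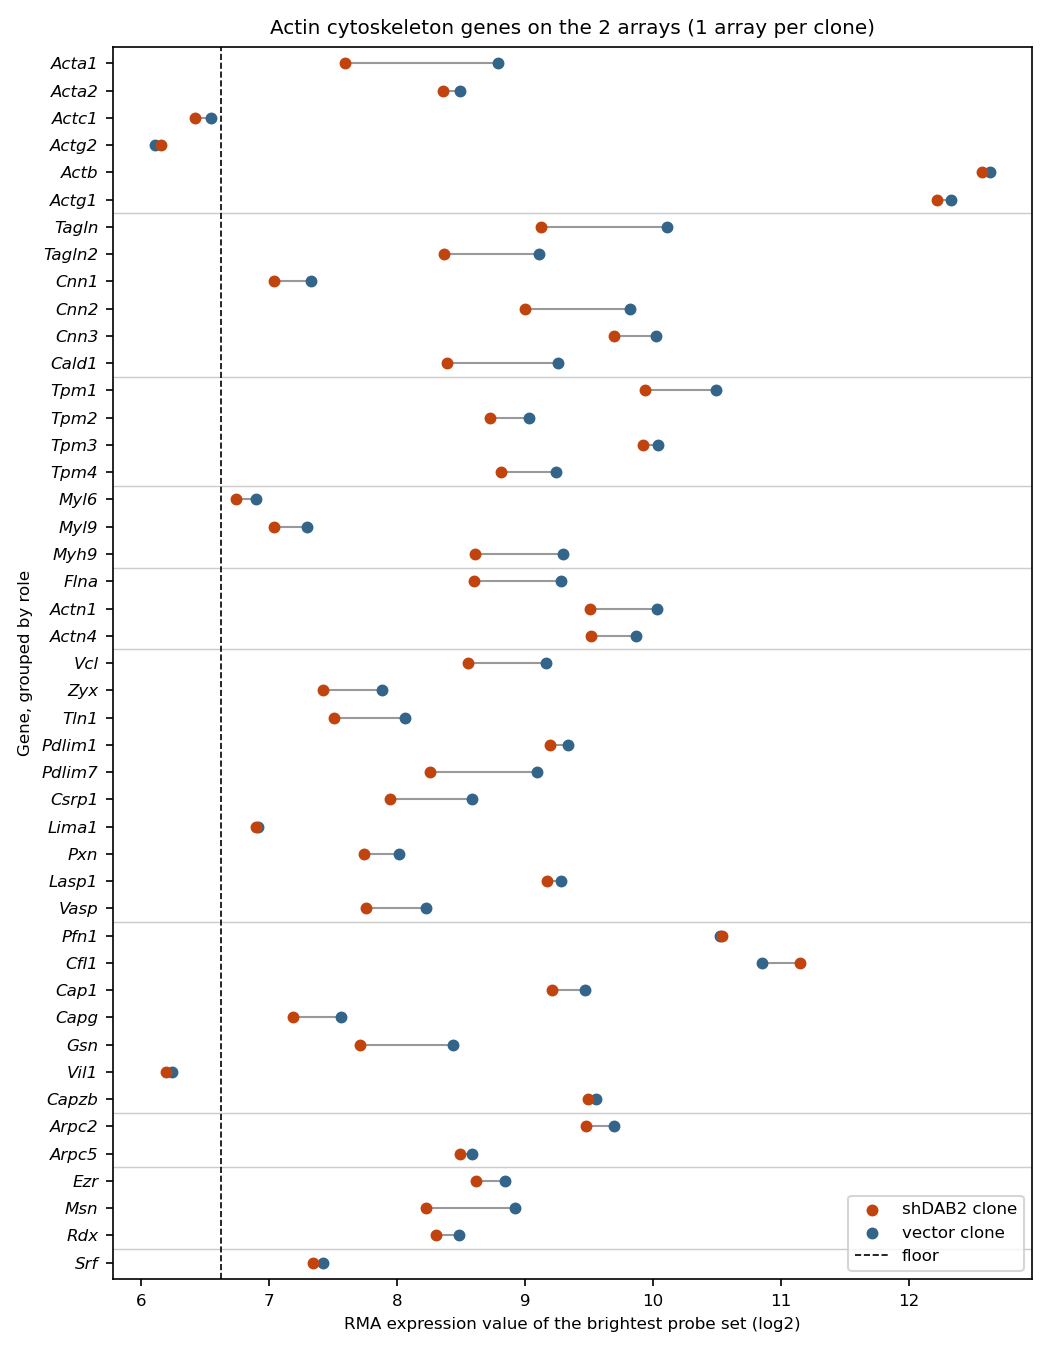
Log2 expression of the 45 measured genes on the array of the shDAB2 clone (orange) and of the vector clone (blue), on the brightest probe set of each gene, grouped by role. The horizontal distance between the points is the difference: it is widest for Acta1, and for Pfn1 and Cfl1 alone among genes above the floor the shDAB2 point lies to the right. Levels of different genes are not comparable, since each probe set has its own affinity.

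The actins themselves differed little, with 1 exception. Actb and Actg1 encode the cytoplasmic beta and gamma actins, the bulk of actin in non-muscle cells. Actb read 12.57 in shDAB2 cells against 12.63 in vector cells, a difference of -0.06, and its other probe set gave -0.12. For Actg1 the values were 12.22 in shDAB2 cells against 12.33 in vector cells, a difference of -0.11. These differences are no larger than about 1 probe-set SD. The brightest signals lie near the top of the range of the arrays, which ended at 12.81 in shDAB2 cells against 12.86 in vector cells, where an array can compress differences. Acta1 encodes the alpha actin of skeletal muscle. It read 7.59 in shDAB2 cells against 8.78 in vector cells, a difference of -1.19, or 2.29-fold lower in the shDAB2 clone. This was the largest difference among the 42 genes, and it rests on 1 probe set, whose ID ends in _a_at, a class whose probes match several transcripts of a gene, so Acta1 has no value where such probe sets are left out. Acta2, the smooth muscle alpha actin gene, read 8.36 in shDAB2 cells against 8.49 in vector cells, a difference of -0.13. Its other probe set lay below the floor and gave 0.02. Actc1 (cardiac alpha actin) and Actg2 (enteric gamma actin) were below the floor on both arrays. The nucleotide sequences of actin genes are much alike in their coding parts, so probes of one can take up transcripts of another, and the values of single actins are less certain for that reason.

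The promoters of Acta1 and Actg1 are shown because both hold the same SRF motif while their transcripts differed by unlike amounts. Each line gives the RefSeq window of GRCm38.p6 from 250 bases before to 50 bases after the transcript start, 5′ to 3′ on the strand of the gene, with the CArG box in capitals. The Acta1 window lies at chr8:123894726-123895025 on the minus strand and the Actg1 window at chr11:120348446-120348745 on the minus strand.
Acta1: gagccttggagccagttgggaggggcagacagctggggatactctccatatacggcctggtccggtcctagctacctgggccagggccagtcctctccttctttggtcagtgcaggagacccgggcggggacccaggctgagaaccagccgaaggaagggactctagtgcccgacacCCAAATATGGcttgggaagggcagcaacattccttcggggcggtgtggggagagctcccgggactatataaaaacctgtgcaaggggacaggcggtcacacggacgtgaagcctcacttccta
Actg1: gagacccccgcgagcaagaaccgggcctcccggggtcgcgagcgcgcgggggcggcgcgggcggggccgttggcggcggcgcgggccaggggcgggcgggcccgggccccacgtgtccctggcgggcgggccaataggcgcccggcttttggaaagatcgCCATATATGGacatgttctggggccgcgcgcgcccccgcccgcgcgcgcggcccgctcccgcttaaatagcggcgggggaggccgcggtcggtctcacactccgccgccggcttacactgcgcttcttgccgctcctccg
In the Acta1 window the box starts 73 bases before the transcript start, and in the Actg1 window 90 bases before it. Acta1 differed by -1.19, on 1 probe set. Actg1 differed by -0.11, with signals near the top of the arrays' range, where differences can be compressed. Whether the box bears on either difference was not tested.

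Among the proteins that lie along the filament, 6 of 6 genes of the calponin family and caldesmon were lower and 4 at least 1.5-fold. Over all genes above the floor the shares were 49.3% and 1.62%. The calponin family and caldesmon had the most negative median of the role groups, -0.78. Without probe sets that can match several transcripts (IDs ending in _s_at, _x_at or _a_at) this median was -0.39, and the crosslinkers came first at -0.60. That setting left out Actn4, so the crosslinker median there rested on Flna and Actn1 alone. It also left out Tagln2 and read Cald1 on its probe set with the smallest difference. Tagln encodes transgelin (SM22), an actin-bundling protein of smooth muscle and an SRF target. It read 9.13 in shDAB2 cells against 10.11 in vector cells, 1.97-fold lower, on its only probe set. Its relative Tagln2 read 8.37 in shDAB2 cells against 9.11 in vector cells, a difference of -0.74, with -0.45 on the second probe set. Cnn2 encodes calponin 2, a calponin of non-muscle cells. It read 9.00 in shDAB2 cells against 9.82 in vector cells, 1.77-fold lower. Cald1, the gene of caldesmon, which restrains myosin on the filament, read 8.39 in shDAB2 cells against 9.26 in vector cells, 1.83-fold lower. Its other probe sets gave -0.39 and -0.77, so the direction was shared and the size was not. The remaining calponin genes were nearer to 0. Cnn1, the smooth muscle calponin gene, read 7.04 in shDAB2 cells against 7.32 in vector cells, a difference of -0.28. Cnn3, acidic calponin, read 9.69 in shDAB2 cells against 10.03 in vector cells. Its 6 probe sets were all above the floor and ran from -0.56 to 0.12, a wider range than the probe sets above the floor gave for any other listed gene. The window of Cnn2 is shown as that of the calponin gene that was 1.5-fold lower and holds a CArG box, here starting 56 bases before the transcript start (chr10:79988350-79988649, plus strand).
Cnn2: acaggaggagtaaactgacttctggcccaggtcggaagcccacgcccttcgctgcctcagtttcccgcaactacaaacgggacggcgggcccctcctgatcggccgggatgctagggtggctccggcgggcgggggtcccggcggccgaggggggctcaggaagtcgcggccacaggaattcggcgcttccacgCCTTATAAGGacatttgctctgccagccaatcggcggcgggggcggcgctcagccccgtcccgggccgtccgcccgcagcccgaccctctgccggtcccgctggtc

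All 4 tropomyosin genes were lower and none 1.5-fold lower, beside 49.3% and 1.62% of all genes, with a median of -0.37. Tropomyosins are coiled coils that run along the groove of the filament and decide which other proteins bind it. Tpm1 read 9.94 in shDAB2 cells against 10.49 in vector cells, and its 3 probe sets gave -0.56, -0.42 and -0.22. For Tpm4 the values were 8.81 in shDAB2 cells against 9.24 in vector cells, a difference of -0.43 on its only probe set. Tpm2 differed by -0.31 and Tpm3 by -0.12, and the other probe sets of Tpm2 ran from -0.20 to 0.0028. The order of the 4 genes depends on the probe sets: Tpm1 stood at -0.40 with the mean of all its probe sets and at -0.42 without the suffixed ones, against -0.43 for Tpm4 under both. Without the suffixed probe sets Tpm2 and Tpm3 were left with probe sets below the floor, at 0.0028 and 0.09.

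Among the listed genes, myosin II was measured through 1 heavy chain and 2 light chains. Other myosin II genes, Myh14, Myl12a and Myl12b, were measured outside the list and are given further below. Myh9, the gene of the non-muscle myosin IIA heavy chain, read 8.61 in shDAB2 cells against 9.29 in vector cells, 1.61-fold lower. All 4 of its probe sets were above the floor in at least 1 clone and lower in the shDAB2 clone, between -0.77 and -0.29. The regulatory light chain gene Myl9, whose phosphorylation switches the motor on, read 7.04 in shDAB2 cells against 7.30 in vector cells. Myl6, the essential light chain gene, read 6.74 in shDAB2 cells against 6.90 in vector cells. The signals of Myl9 and Myl6, which differed by -0.26 and -0.15, lie close to the floor, where RMA is known to shrink differences.

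The 3 crosslinker genes were all lower by at least 0.32, beside 6.07% of all genes. Flna encodes filamin A, which joins filaments into an orthogonal network under the membrane. It read 8.60 in shDAB2 cells against 9.28 in vector cells, 1.60-fold lower on its only probe set. Actn1 (alpha-actinin 1) read 9.51 in shDAB2 cells against 10.03 in vector cells, with -0.53 on the brightest probe set and -0.23 and -0.59 on the others. Actn4 (alpha-actinin 4) read 9.52 in shDAB2 cells against 9.86 in vector cells, a difference of -0.35.

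At the focal adhesion, 10 of 10 genes were lower, 6 of them by at least 0.32 and 3 at least 1.5-fold. Over all genes above the floor the shares were 49.3%, 6.07% and 1.62%. The median of the 10 was -0.46. It was -0.29 with the mean of all probe sets of each gene, including those below the floor. Pdlim7, a PDZ and LIM domain protein that binds tropomyosin and alpha-actinin, read 8.26 in shDAB2 cells against 9.09 in vector cells, 1.78-fold lower, with -0.63 on its other probe set. Csrp1, a LIM domain protein that binds alpha-actinin and zyxin, read 7.95 in shDAB2 cells against 8.59 in vector cells, with -0.64 and -0.61 on its probe sets. These 2 genes passed 1.5-fold on both of their probe sets. Vcl, the vinculin gene, read 8.55 in shDAB2 cells against 9.16 in vector cells, 1.53-fold lower, with -0.46 on the other probe set. Talin, the product of Tln1, links integrin tails to actin and exposes binding sites for vinculin under tension. Tln1 read 7.51 in shDAB2 cells against 8.06 in vector cells, a difference of -0.55, and its other probe set, below the floor, gave -0.04. Vasp, which promotes filament elongation, read 7.75 in shDAB2 cells against 8.22 in vector cells. Zyxin marks sites where filaments are under load, and Zyx read 7.42 in shDAB2 cells against 7.88 in vector cells, with -0.46 on the brightest probe set and -0.11 on the other. The scaffold gene Pxn (paxillin) differed by -0.28, Pdlim1 by -0.14 and Lima1 (EPLIN, which slows filament turnover) by -0.02. Lima1 stayed between -0.05 and -0.02 on 3 probe sets. Lasp1, a LIM and SH3 domain protein, had 9 probe sets, all lower, from -0.42 to -0.02. Its brightest gave only -0.10, so the rule that picks the brightest probe set put Lasp1 near the small end of its own range. In the window of Vcl the CArG box starts 227 bases before the transcript start, farthest of the windows that hold one (chr14:20929148-20929447, plus strand).
Vcl: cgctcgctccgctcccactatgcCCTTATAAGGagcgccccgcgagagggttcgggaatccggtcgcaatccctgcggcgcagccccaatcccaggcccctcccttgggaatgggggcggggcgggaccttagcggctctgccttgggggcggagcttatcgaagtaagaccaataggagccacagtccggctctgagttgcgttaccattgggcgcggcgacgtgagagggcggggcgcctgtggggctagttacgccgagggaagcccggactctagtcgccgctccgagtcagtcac

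The genes that turn filaments over were divided. Profilin feeds monomers to growing ends and cofilin severs old filaments, and both genes lacked the lower values seen elsewhere. Pfn1 read 10.54 in shDAB2 cells against 10.52 in vector cells, a difference of 0.02. Cfl1 read 11.15 in shDAB2 cells against 10.85 in vector cells, a difference of 0.30, but 0.02 on its other probe set. The brighter one has an ID ending in _x_at, a class whose probes can also match other transcripts. Cap1, which recycles monomers with cofilin, differed by -0.25 and -0.14 on its probe sets. Capzb, the beta subunit of the protein that caps the growing end, stayed between -0.07 and -0.05 on the 3 probe sets above the floor. The genes of the gelsolin family read lower where they could be measured. Gsn encodes gelsolin, a calcium-dependent severing and capping protein. It read 7.71 in shDAB2 cells against 8.43 in vector cells, 1.65-fold lower, and its 4 probe sets above the floor ran from -0.72 to -0.50. Capg, a gelsolin relative that caps without severing, read 7.19 in shDAB2 cells against 7.56 in vector cells, a difference of -0.37. Vil1 (villin), of epithelial microvilli, was below the floor.

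The listed genes of branching and membrane attachment showed small differences apart from moesin. The Arp2/3 complex starts new filaments as branches, and its subunit genes Arpc2 and Arpc5 differed by -0.22 and -0.09. Outside the list, among subunit genes chosen after their values were seen, Actr3 differed by -0.31. Arpc1a, Arpc4 and Arpc5l differed by 0.01, -0.01 and 0.03. Ezrin, radixin and moesin tie filaments to the plasma membrane. Msn (moesin) read 8.23 in shDAB2 cells against 8.92 in vector cells, 1.61-fold lower, with -0.45 on its other probe set. Ezr differed by -0.23 on the brightest and 0.04 on the other probe set, so its direction is uncertain. Rdx was even over its 3 probe sets, from -0.22 to -0.18.

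**Figure D2:**
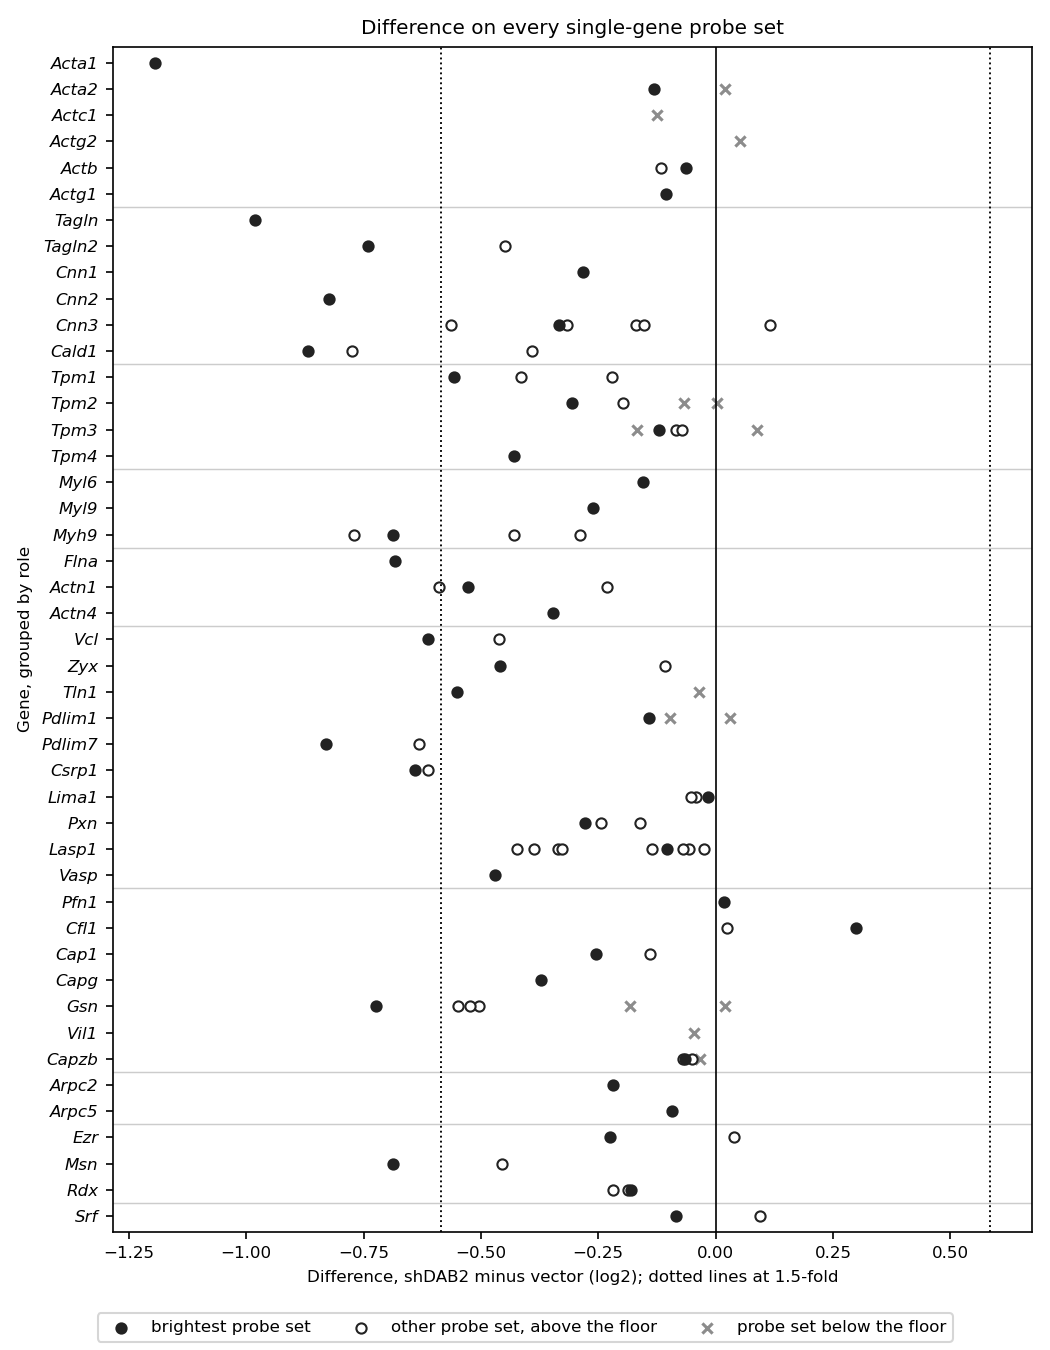
Difference between the shDAB2 clone and the vector clone (log2) on each of the 103 single-gene probe sets of the 45 genes. Filled circles mark the brightest probe set where it is above the floor, open circles other probe sets above the floor and crosses probe sets below it. Of the 89 probe sets above the floor 83 lie left of 0, and the crosses stay between -0.18 and 0.09.

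Second probe sets mostly repeated the direction with a smaller size. Of 103 probe sets 89 were above the floor, 83 of them lower and 6 higher. The matching share over all probe sets was not computed, and over all genes above the floor 49.3% were lower. A second probe set above the floor existed for 24 genes, with the same sign in 22 and the opposite sign in Ezr and Srf. In these 24 genes the median difference was -0.32 on the brightest probe set and -0.21 on the second. Of the 12 genes at least 1.5-fold lower 8 had such a probe set: it was lower in all 8, by at least 0.32 in all 8 and by at least 1.5-fold in 3 of them. For Acta1, Tagln, Cnn2 and Flna there was no second probe set to compare. With the mean of all probe sets of each gene, 4 of the 12 no longer reached 1.5-fold: Msn at -0.57, Myh9 at -0.54, Vcl at -0.54 and Gsn at -0.41. The mean of Gsn takes in probe sets below the floor, at -0.18 and 0.02. All probe sets of Msn, Myh9 and Vcl were above the floor.

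Set beside their binding proteins, the abundant cytoplasmic actins had smaller measured differences, with the limit that their signals lie near the top of the arrays' range, where differences can be compressed. Of 37 genes of actin-associated proteins above the floor (all listed genes other than actins and Srf), 31 had a more negative difference than Actg1. Their median was -0.35, against -0.08 for Actb and Actg1. The 6 genes at or above the Actg1 value were Lasp1, Arpc5, Capzb, Lima1, Pfn1 and Cfl1. The 2 actin genes are too few for a spread of their own, so this is a comparison of values without a test. Across the 42 genes, the difference had a Spearman correlation of 0.15 with mean signal and -0.14 with the length of the gene's span in the genome, against 0.05 and -0.14 over all genes, all computed on the same 2 arrays. The genes above the floor lie on 18 chromosomes, with at most 4 on any of them.

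Srf itself and Mrtfa, the only SRF coactivator above the floor, showed no comparable difference. Srf read 7.34 in shDAB2 cells against 7.42 in vector cells, with -0.09 on one probe set and 0.09 on the other. Mrtfa, one of the actin-sensing coactivators of SRF, read 7.01 in shDAB2 cells against 6.98 in vector cells. Mrtfb and Myocd were below the floor. Of 9 SRF target genes induced by growth factors 7 were above the floor, with a median of 0.06. Of these 2 were lower (28.6%, beside 49.3% of all genes) and 5 higher. The lower ones were Ccn1 at -0.54 (-0.55 on its other probe set) and Junb at -0.51, while Fos, Egr1, Egr3, Ier2 and Ccn2 lay between 0.06 and 0.19. Among these higher ones only Ccn2, at 0.19, exceeded the probe-set SD of 0.11. Fosb and Egr2 were below the floor.

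The CArG box was then searched in the promoters of all listed genes. It consists of CC, 6 bases that are A or T, and GG, and its class of sequences is its own reverse complement, so a search of one strand covers both. RefSeq windows of 300 bases were at hand for 43 of the 47 genes; Actb, Actg2, Tagln and Pxn were not in the table. At least 1 box was found in 10 of the 43 (23.3%), against 1.81% of all 27025 genes in the table and 1.63% of all 32851 windows. The 10 were Acta1, Actc1, Actg1, Cnn2, Myl6, Myl9, Vcl, Lima1, Vil1 and Srf. A match is a description of the letters in this window and does not show binding. The promoter of Srf is shown because it alone among the listed genes held more than 1 box in a window (chr17:46556113-46556412, minus strand), and the boxes of the other genes follow with 10 bases on either side.
Srf: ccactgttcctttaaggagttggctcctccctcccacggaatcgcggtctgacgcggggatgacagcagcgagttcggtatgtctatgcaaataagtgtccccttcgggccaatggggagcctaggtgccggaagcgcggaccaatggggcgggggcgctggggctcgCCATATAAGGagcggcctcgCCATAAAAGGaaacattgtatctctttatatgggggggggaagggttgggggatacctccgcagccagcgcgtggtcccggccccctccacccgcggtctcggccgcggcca
Actc1: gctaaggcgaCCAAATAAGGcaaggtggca
Myl6: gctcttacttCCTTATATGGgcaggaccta
Myl9: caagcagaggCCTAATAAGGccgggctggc
Lima1: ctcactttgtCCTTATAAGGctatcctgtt
Vil1: ccctatcttcCCTTATATGGtgaaggaagt
The boxes lie on GRCm38.p6 at chr2:114052913-114052922 (Actc1, minus strand), chr10:128493050-128493059 (Myl6, minus strand, in the second of its 2 windows), chr2:156775303-156775312 (Myl9, plus strand), chr15:99820187-99820196 (Lima1, minus strand) and chr1:74409311-74409320 (Vil1, plus strand). Cnn2, Vcl and Lima1 share the same 10 bases, and their differences were -0.82, -0.61 and -0.02. The Lima1 window (chr15:99820100-99820399) belongs to an internal start, inside the span of the gene (chr15:99778468-99875477). The Srf window and the second Myl6 window also belong to starts inside the spans of their genes (chr17:46546838-46558267 and chr10:128490859-128493886). Whether the probe sets of Lima1, Srf and Myl6 read transcripts from those starts was not examined. Of the 10 genes 8 were above the floor, all lower, 3 of them at least 1.5-fold, with a median of -0.21. Of the 33 genes whose windows held no box 31 were above the floor. Of these 29 were lower and 8 at least 1.5-fold lower, with a median of -0.35. Over all genes above the floor 49.3% were lower and 1.62% at least 1.5-fold lower. Only exact matches inside these windows were counted, so genes without a box may hold near matches or boxes farther away. The Acta2 window, for example, holds CCCTATATGG, with C in place of 1 A or T. These medians therefore do not compare genes with and without SRF sites.

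**Figure D3:**
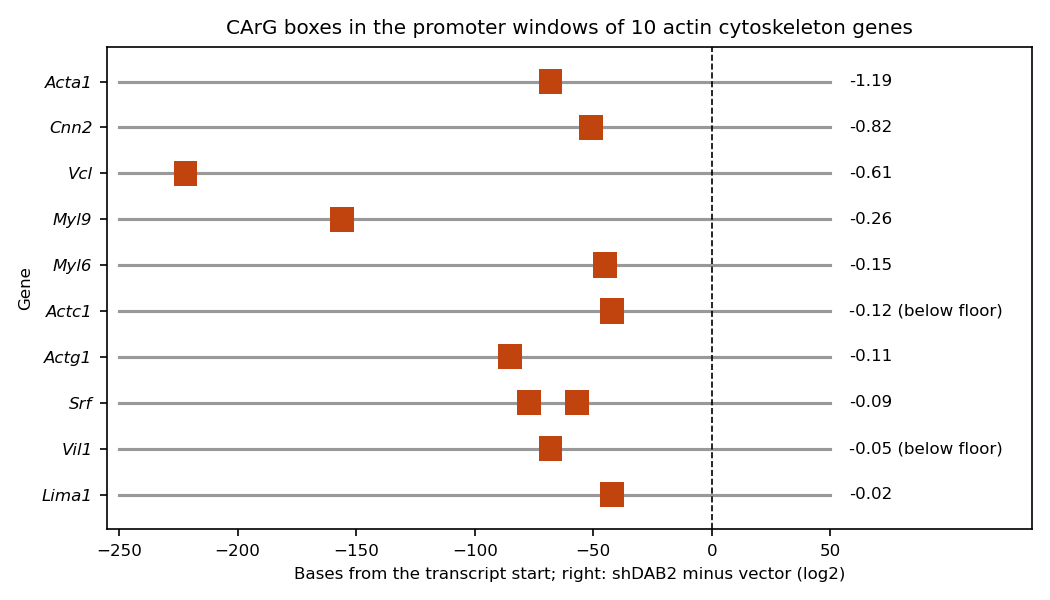
Position of each CArG box (orange bars) in the promoter windows of the 10 genes that hold one, in bases from the transcript start (dashed line), ordered by the difference between the shDAB2 clone and the vector clone given at the right. The boxes lie between 227 and 38 bases before the start, and genes with boxes span differences from -1.19 to -0.02.

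Other genes of the actin system, a list of 74 that holds none of the genes above, showed a smaller shift in the same direction. Of 62 measured genes 56 were above the floor: 43 were lower, 12 higher and Tmsb4x had equal values on both arrays. The share of lower genes was 76.8%, beside 49.3% of all genes, and the median was -0.11. By at least 0.32, 13 were lower (23.2%, beside 6.07% of all genes) and 0 higher (beside 4.91%). Only Pdlim2 was at least 1.5-fold lower (1.79%, near the 1.62% of all genes). Pdlim2, an alpha-actinin-binding LIM protein, read 6.78 in shDAB2 cells against 7.40 in vector cells. Genes of integrin adhesion proteins in this list were mixed: Parva differed by -0.53, its partner Ilk (integrin-linked kinase) by -0.50 and Fermt2 (kindlin 2) by -0.41. Among those chosen after their values were seen, Lims1, whose product binds Ilk, differed by 0.01, Tes by -0.01 and Bcar1 by -0.12. The LIM protein gene Fhl1 stood at -0.44 and the cortactin gene Cttn, whose product stabilises branches, at -0.39, with -0.24 to -0.43 on its other probe sets above the floor. Myosin genes were mixed as well, with the membrane motor gene Myo1c at -0.58 and the light chain gene Myl12a at -0.39 (-0.09 on its other probe set). The remaining myosin genes above the floor, chosen after their values were seen, were Myl12b at -0.30 and Myo5a, Myo10 and Myh14, each at -0.02. The probe sets of Myo1c ran from -0.86 to -0.34, and 1 of them passed 1.5-fold. Limk2, which phosphorylates cofilin, stood at -0.53 and Coro1b, a regulator of Arp2/3, at -0.41. The scaffold gene Iqgap1 stood at -0.43, or -0.21 with all its probe sets averaged, including those below the floor. Among genes chosen after their values were seen, Tmsb10, which sequesters monomers, differed by 0.05, Dstn, of the cofilin family, by -0.04 and Fscn1, the filopodial bundler fascin, by 0.11. The highest was Twf2 (twinfilin 2) at 0.30, with 0.16 on its other probe set. In the same promoter search 4 of 59 of these genes with a window held a CArG box (6.78%): Arpc4, Fermt2, Fhl1 and Fhl2, which differed by -0.01, -0.41, -0.44 and -0.03.

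**Figure D4:**
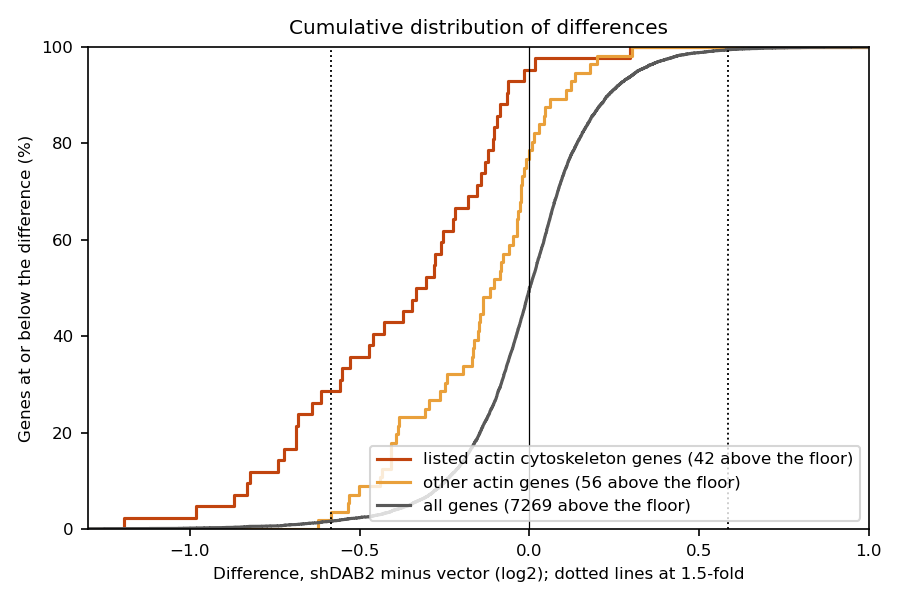
Percentage of genes at or below each difference between the shDAB2 clone and the vector clone (log2), for the 42 listed actin cytoskeleton genes above the floor, the 56 other actin genes and all 7269 genes. From its lowest value, -1.19, the curve of the listed genes lies left of that of all genes, with 95.2% of it below 0. The curve of the other actin genes starts at -0.62 and lies between them from there to 0.

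Markers of cell types that express muscle-type actins were near the floor on both arrays. Embryonic stem cell markers were above it in 8 of 8 genes, 4 lower and 4 higher, with a mean of 9.68 in shDAB2 cells against 9.68 in vector cells. The smooth muscle and striated muscle marker lists also hold Acta1, Acta2, Actc1, Cnn1 and Tagln, given above and left out here. Of 5 smooth muscle markers outside the list 2 were above the floor, Des and Lmod1, and all 5 differed by -0.11 to 0.07; Myh11, which defines that cell type, was below it. Of 10 striated muscle markers outside the list only Mybpc3 was above the floor, and all 10 differed by -0.13 to 0.16. Of 8 fibroblast markers only Dcn reached the floor, at 6.62 in shDAB2 cells against 6.55 in vector cells. Primitive endoderm markers passed it in 1 of 8 genes, Lama1. Of 7 trophectoderm markers 3 were above the floor, all lower in the shDAB2 clone: the keratin genes Krt18 at -1.32 and Krt8 at -0.72, and Tfap2c at -0.47. The mean over the 7 was 7.55 in shDAB2 cells against 7.89 in vector cells, while Cdx2, Eomes, Elf5 and Gata3 were below the floor on both arrays. The trophectoderm markers above the floor thus moved in the direction of the actin cytoskeleton genes, and their part in the result was not tested.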

How the data were processed

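RNA of 2 clones was measured on 1 Affymetrix mouse 430A array each, from 10 µg of total RNA per the labels' protocols. The deposited table holds 1 log2 value per probe set, made by the authors with RMA (a method of background subtraction, quantile normalization and probe summary), per the submitters' processing notes. The RMA version is not given in the sources used here, and values were read as log2 from their size. RMA shrinks differences of dim probe sets, and there are no detection calls. Gene names come from the platform annotation: of 22626 probe sets, 20380 name 1 gene and were used, 691 name several and 1555 are unnamed here. Gene IDs of 45 of 45 measured genes matched RefSeq (GRCm38.p6) with the same symbol. Precision is limited by having 1 array per clone.

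The listed genes and all other lists were chosen with earlier results of these data known. Named are all listed genes, other actin genes that differed by at least 0.32 (at most 12, of which 1 is not reported here), SRF coactivators and targets, cell type markers and Dab2. Computations used Python 3.11.15 and pandas 2.3.3, with limma 3.58.1 for cyclic loess. Alternatives were the probe-set rule, probe sets allowed, scaling, floor and fold limit.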

Additional observations from a re-analysis of the deposited data

How the results depend on the processing

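With the mean of all probe sets the calponin and caldesmon median was -0.64, the adhesion median -0.29 and that of Srf, the one transcription factor, 0.0047. Without probe sets ending in _s_at, _x_at and _a_at the calponin and caldesmon median was -0.39 and Srf stood at 0.0945; 32 listed genes remained. Both settings use other probe sets by construction, and the mean takes in those below the floor. A floor at the 75th percentile leaves 1 listed myosin II gene, at -0.69. Other actin genes at least 1.5-fold lower numbered 2 without those probe sets, after cyclic loess and after centring. A limit of 0.32 on the log2 scale gave 21 listed and 13 other actin genes lower, and 441 lower and 357 higher among all genes; a limit of 2-fold gave 1, 0, 13 and 2. Of the 12 genes at least 1.5-fold lower, 8 stayed so with the mean of all probe sets and 8 of the 9 still measured without the suffixed ones; all 12 did after cyclic loess. Centring, which lowers every difference by 0.0077, and removing the floor could not drop any of them. The median over the listed genes stayed between -0.36 and -0.27. Among values of single named genes, 14 of 70 shifted by more than 0.11, the SD of a probe set, with the mean of all probe sets, 12 of 60 without the suffixed ones and 0 of 70 after cyclic loess; the floor and centring cannot shift them by that much. No paired analysis was possible because each group has 1 array. Signal near the floor limits what can be said of the genes there.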
